A study of Mus musculus with 6 samples.

Results

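The genes described here carry out and control cholesterol synthesis, uptake and efflux, and were compared between mammary tumours grown under DPM and under vehicle. The list holds 30 genes named for their roles in these steps. Of these, 28 had a probe set that the array's annotation assigns to that gene alone, and all 28 were among the 14953 genes tested, out of 19938 genes with such a probe set. No probe set used here was named for Acat2, which makes acetoacetyl-CoA, or for Nr1h2, which encodes the liver X receptor LXR-beta, so neither had a level to compare here. A gene was represented by its brightest probe set on average over the 6 arrays.

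All 6 tumours came from FVB female mice of the genotype MMTV-PyMT+, in which a mammary tumour virus promoter drives polyoma middle T antigen in mammary epithelium, and all were taken at 15 weeks of age. The 3 DPM tumours came from an arm of 10 mice injected into the peritoneum at 10 mg/kg, and the 3 vehicle tumours from an arm of 7 mice. Injections started at 4 weeks of age and ran for 11 weeks, with 5 days on and 2 days off. The drug is named only as DPM in the labels, and was read here as dipyridamole from knowledge of the study. Each tumour was labelled a biological replicate, and its solid, non-necrotic part gave 100 ng of total RNA for 1 Affymetrix array. RNA of whole tumour tissue was measured, so that fewer cells of a type and less RNA per cell cannot be told apart.

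Cells make cholesterol from acetyl-CoA through mevalonate, isoprenoid diphosphates, squalene and lanosterol. When membrane sterol is low, the escort protein SCAP carries SREBP2 from the endoplasmic reticulum to the Golgi, where it is cleaved, and its released part turns on the enzymes of the pathway together with the factors NF-Y and Sp1. INSIG proteins hold SCAP back when sterol is plentiful, and oxysterols then activate liver X receptors, which turn on the exporters ABCA1 and ABCG1 and the ubiquitin ligase MYLIP. Dipyridamole has been described to hinder SREBP processing in cultured cells, which makes the levels of these genes in treated tumours of interest.

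Promoters are shown because NF-Y and SREBP2 bind short sites close to the start of genes of this pathway. Whether such sites bear on the values of the enzymes in these tumours was not tested. RefSeq promoters of GRCm38.p6, from 250 bases before to 50 bases after the annotated start, were matched by symbol for 25 of the 30 genes. Fdps, Fdft1, Sqle, Stard4 and Abcg1 had no entry. The 250 bases before the start follow, 5′ to 3′ on the gene's strand, for 3 enzymes, for the SREBP2 gene itself and for the liver X receptor gene Nr1h3, the first of its 2 promoters. Capitals mark the NF-Y motif CCAAT on either strand, so that ATTGG is its reverse complement, and the sterol element TCACNCCAC or its shorter form TCACNCCA, which it contains.

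Hmgcs1, chr13:119690101-119690350, plus strand: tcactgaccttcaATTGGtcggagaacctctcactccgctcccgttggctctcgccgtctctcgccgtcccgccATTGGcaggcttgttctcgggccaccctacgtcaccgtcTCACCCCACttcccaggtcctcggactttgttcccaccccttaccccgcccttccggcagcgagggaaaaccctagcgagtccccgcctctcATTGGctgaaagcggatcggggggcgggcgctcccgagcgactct
Idi1, chr13:8885356-8885605, plus strand: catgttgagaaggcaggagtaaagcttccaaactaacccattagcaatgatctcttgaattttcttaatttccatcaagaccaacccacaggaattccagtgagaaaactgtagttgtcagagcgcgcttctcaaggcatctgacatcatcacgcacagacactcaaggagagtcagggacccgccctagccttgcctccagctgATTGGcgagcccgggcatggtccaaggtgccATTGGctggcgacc
Cyp51, chr5:4104698-4104947, minus strand: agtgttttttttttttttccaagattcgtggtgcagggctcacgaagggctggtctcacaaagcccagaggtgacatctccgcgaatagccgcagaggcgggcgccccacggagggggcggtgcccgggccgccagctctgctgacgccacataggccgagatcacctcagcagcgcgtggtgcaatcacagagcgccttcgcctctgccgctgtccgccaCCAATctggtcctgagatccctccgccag
Srebf2, chr15:82147019-82147268, plus strand: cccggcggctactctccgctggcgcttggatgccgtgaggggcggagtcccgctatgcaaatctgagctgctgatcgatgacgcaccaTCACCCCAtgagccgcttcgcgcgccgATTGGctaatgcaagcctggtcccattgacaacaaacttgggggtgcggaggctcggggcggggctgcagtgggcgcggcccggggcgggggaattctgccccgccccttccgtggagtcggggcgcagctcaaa
Nr1h3, chr2:91195117-91195366, minus strand: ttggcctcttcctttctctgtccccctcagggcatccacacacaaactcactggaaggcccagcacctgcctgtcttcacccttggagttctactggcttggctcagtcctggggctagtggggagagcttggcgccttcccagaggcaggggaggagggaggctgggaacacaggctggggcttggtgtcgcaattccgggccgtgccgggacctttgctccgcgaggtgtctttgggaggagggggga

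These windows held 3 CCAAT motifs for Hmgcs1, 2 for Idi1, 1 for Cyp51, 1 for Srebf2 and 0 for Nr1h3. Over the whole windows and both strands, CCAAT was found for 20 of the 25 genes and for 16 of the 17 synthesis enzymes with an entry. In these counts, a gene with several promoters had a motif if any of its promoters held it. Dhcr7, Pmvk and Insig2 held CCAAT in some of their promoters and not in others. It was found for 41.5% of the 11772 genes tested on the arrays that had a promoter entry, and for 41.1% of all 27025 genes with one. Acat2 was the synthesis enzyme without the motif, and the other genes without it were Scap, Abca1, Nr1h2 and Nr1h3. The Sp1 motif GGGCGG was found for 21 of the 25 genes, against 63.8% of the genes tested. The sterol element TCACNCCAC was found for 1 gene, Hmgcs1, against 1.46% of the genes tested. Its shorter form, chosen after the data were seen, was found for Hmgcs1, Msmo1 and Srebf2, against 4.63%. The consensus element of liver X receptors, a direct repeat with a spacer, was found for 0 of the 25 genes and 0 of the genes tested. A match describes letters in a window and is not a measured binding site. Only these letter patterns were searched, so that a gene without a match may still hold a site.

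None of the 28 genes reached the threshold in the limma fit of DPM against vehicle, and the differences were small in both directions. By that fit, 0 of the 28 genes were called at an adjusted p under 0.05, where 0% of all genes tested were called (smallest adjusted p over all genes 0.676, over the 28 genes 0.9996). At an unadjusted p under 0.05 there were also 0 of the 28, beside 3.87% of all genes. The 3 DPM values overlapped the 3 vehicle values for every one of the 28 genes, while the groups did not overlap for 6.97% of all genes tested. The differences, DPM minus vehicle on the log2 scale, ran from -0.14 for Abcg1 to 0.17 for Scap. Their median size without sign was 0.064, beside 0.062 over all genes tested. The 95% intervals lay within 0.5 log2 on either side of 0 for 26 of the 28 genes and for 84.1% of all genes tested. The 2 intervals that passed these limits were those of Msmo1, down to -0.57, and of Idi1, up to 0.51, so that shifts of that size in these 2 genes lie within the error of 3 tumours per group.

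**Figure D1:**
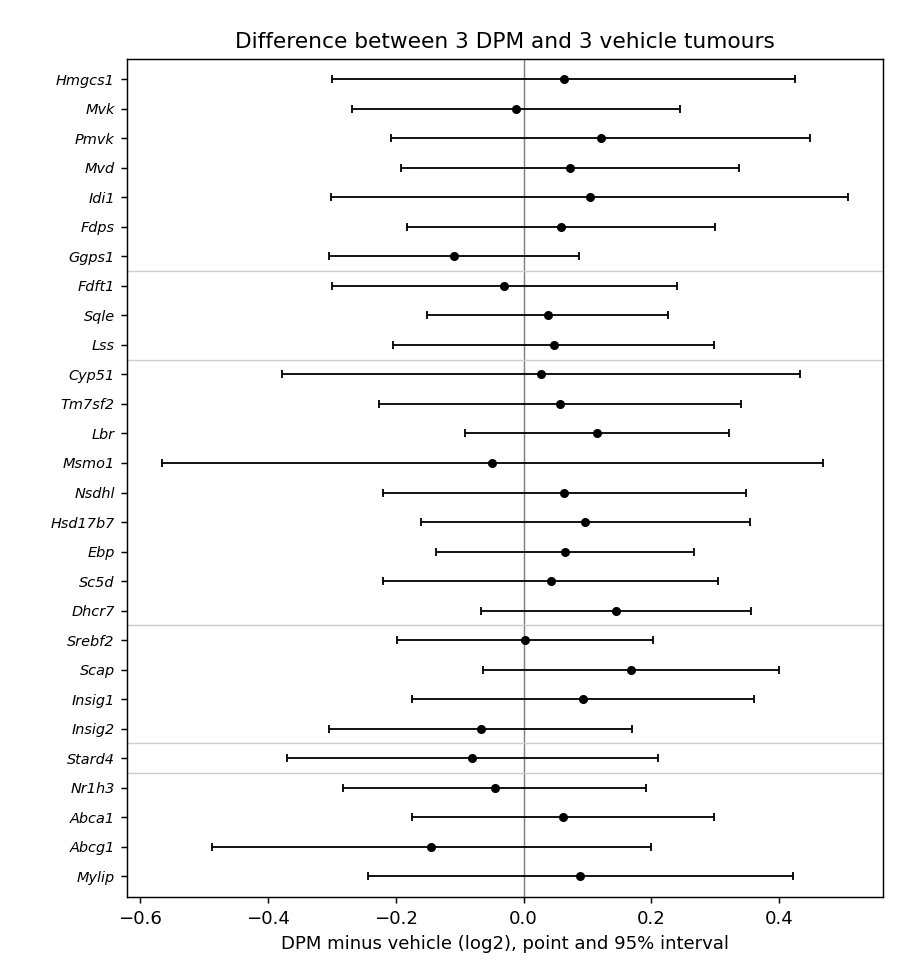
Difference between the means of 3 DPM and 3 vehicle tumours (log2, points) with its 95% interval (bars) for the 28 genes, in pathway order and divided by role. Every interval holds 0, and the points lie between -0.14 for Abcg1 and 0.17 for Scap.

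Of the 28 genes, 20 had the higher mean in DPM tumours and 8 the lower, with a median difference of 0.058 log2, beside 50.3% of all genes that were on average higher under DPM and a median of 0.0006. Among the 19 synthesis enzymes measured, 15 had the higher mean in DPM tumours, with a median of 0.059. On the quantile-normalised scale, the counts were 12 of 28 and 9 of 19 without DPM replicate 1, and the medians -0.017 and -0.0062. Without vehicle replicate 2 the counts were 16 of 28 and 11 of 19, and the medians 0.024 and 0.028. With array weights the counts were 17 and 12, and the medians 0.025 and 0.029. With all 6 arrays, the counts were 20 and 15 under median centring, and 19 and 15 with no scaling. Arrays were not left out on those 2 scales.

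**Figure D2:**
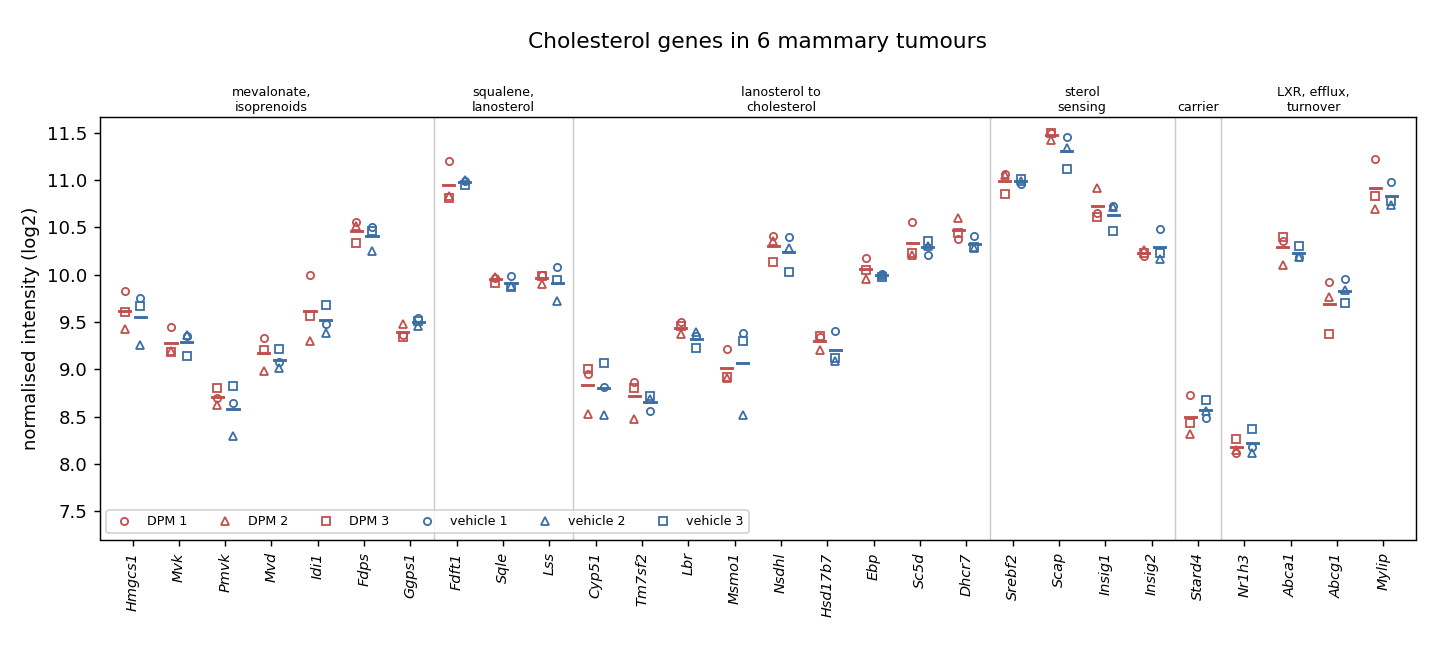
Normalised log2 intensity of each gene (vertical axis) in every tumour, with genes in pathway order along the horizontal axis. Red symbols are DPM and blue symbols vehicle tumours, the symbol shape gives the replicate number and short bars mark group means; the groups overlap for all 28 genes.

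The first enzymes of the pathway lead from acetyl-CoA units to isoprenoid diphosphates. The 7 measured had a median difference of 0.063 log2, 5 with the higher and 2 with the lower mean in DPM tumours. The median was -0.04 without DPM replicate 1 and -0.019 without vehicle replicate 2. Hmgcs1, which makes HMG-CoA, read 9.83, 9.43 and 9.61 on the DPM arrays (replicates 1 to 3) and 9.75, 9.25 and 9.66 on the vehicle arrays, all in normalised log2 units. Its lowest value was that of vehicle replicate 2 and its highest that of DPM replicate 1, and the difference was 0.06 (SE 0.16, n = 3 each). Pmvk, phosphomevalonate kinase, read 8.69, 8.62 and 8.80 in DPM and 8.64, 8.29 and 8.82 in vehicle tumours. Vehicle replicate 2 again lay below the other 5, and the remaining tumours of both groups mixed. Mvd, mevalonate diphosphate decarboxylase, read 9.33, 8.98 and 9.21 in DPM and 9.07, 9.01 and 9.22 in vehicle tumours, with a gap between means of 0.07 (SE 0.11, n = 3 each). Its highest and its lowest value were both DPM tumours.

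Ggps1, which makes geranylgeranyl diphosphate for protein prenylation, read 9.36, 9.48 and 9.35 in DPM and 9.54, 9.46 and 9.51 in vehicle tumours. DPM replicates 1 and 3 lay below all vehicle tumours and DPM replicate 2 lay among them, and the difference was -0.11 (95% interval -0.30 to 0.09). It is the enzyme of the 19 with the lowest difference, and its sign held in every alternative run. Idi1, isopentenyl diphosphate isomerase, was chosen after its values were seen for its wide range. It read 9.99, 9.30 and 9.56 in DPM and 9.48, 9.39 and 9.68 in vehicle tumours. DPM replicate 1 stood above the other 5 and DPM replicate 2 below them, and the difference of 0.10 became -0.086 without DPM replicate 1. A second Idi1 probe set read 9.97, 9.28 and 9.53 in DPM and 9.47, 9.41 and 9.65 in vehicle tumours, with the same order of the 6 tumours. Whether either probe set also detects a near-identical copy of the gene was not examined. The other 2 enzymes of this stretch, mevalonate kinase (Mvk) and farnesyl diphosphate synthase (Fdps), differed by -0.01 and 0.06.

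The next 3 enzymes commit farnesyl diphosphate to sterols, and their median difference was 0.038 log2. Sqle, squalene epoxidase, a rate-limiting step, read 9.97, 9.98 and 9.91 in DPM and 9.99, 9.88 and 9.87 in vehicle tumours. It had the narrowest range of the 28 genes, 0.12 log2 over the 6 tumours, and its difference of 0.04 had a 95% interval of -0.15 to 0.23, or 0.901 to 1.17 times the vehicle level. Lss, lanosterol synthase, read 10.00, 9.90 and 9.99 in DPM and 10.08, 9.72 and 9.94 in vehicle tumours. Its highest and its lowest value were both vehicle tumours. Fdft1, squalene synthase, read 11.21, 10.83 and 10.81 in DPM and 10.99, 11.00 and 10.95 in vehicle tumours. DPM replicate 1 lay above and the other 2 DPM tumours below all 3 vehicle tumours, giving a difference of -0.03 (SE 0.12, n = 3 each) and, on a second probe set, -0.07.

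The last 9 enzymes turn lanosterol into cholesterol, and 8 of them had the higher mean in DPM tumours, with a median difference of 0.063 log2. Without DPM replicate 1 the median was 0.0071, and Cyp51, Tm7sf2, Msmo1 and Sc5d had the lower mean in DPM tumours. Dhcr7, which reduces 7-dehydrocholesterol to cholesterol, read 10.38, 10.59 and 10.44 in DPM and 10.41, 10.28 and 10.29 in vehicle tumours. DPM replicate 1 lay below vehicle replicate 1, and otherwise the DPM values were higher, with a difference of 0.14 (95% interval -0.07 to 0.36). It was between 0.083 and 0.19 in every analysis that left out 1 array. Lbr, the lamin B receptor, which is also a sterol C14 reductase, read 9.49, 9.37 and 9.45 in DPM and 9.35, 9.39 and 9.22 in vehicle tumours, and Hsd17b7, a 3-ketosteroid reductase, read 9.35, 9.20 and 9.35 against 9.40, 9.09 and 9.12. In both, 1 vehicle tumour lay above 1 or more DPM tumours. Their differences were 0.11 (SE 0.09) and 0.10 (SE 0.11).

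Msmo1 and Cyp51, chosen after their values were seen, were among the 5 genes with the widest range. Msmo1, the C4 methylsterol oxidase, read 9.21, 8.91 and 8.92 in DPM and 9.38, 8.51 and 9.30 in vehicle tumours. Its range of 0.87 log2 was the widest of the 28 genes and lay within the vehicle group, where replicate 2 stood apart. Without that tumour the difference went from -0.05 to -0.33 (limma unadjusted p = 0.0348, adjusted p = 0.9999). Cyp51, lanosterol 14-alpha demethylase, read 8.95, 8.53 and 9.01 in DPM and 8.81, 8.52 and 9.07 in vehicle tumours. The replicates numbered 2 were low in both groups, and the difference was 0.03 (SE 0.17, n = 3 each). The other 4 enzymes, the C14 reductase Tm7sf2, the decarboxylating dehydrogenase Nsdhl, the isomerase Ebp and the desaturase Sc5d, had differences from 0.04 for Sc5d to 0.06 for Ebp, Nsdhl and Tm7sf2.

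The genes that sense sterol had a median difference of 0.048 log2, and of -0.015 to 0.11 when 1 array was left out. Srebf2, which encodes SREBP2, read 11.06, 11.06 and 10.85 in DPM and 10.96, 10.99 and 11.01 in vehicle tumours. The vehicle tumours lay inside the range of the DPM tumours, and the difference was 0.00 (95% interval -0.20 to 0.20). Scap, the escort of SREBP2, read 11.50, 11.43 and 11.50 in DPM and 11.46, 11.34 and 11.12 in vehicle tumours. Vehicle replicate 1 lay within the DPM range and the other 2 vehicle tumours below it, and the difference of 0.17 (95% interval -0.06 to 0.40) was the highest of the 28 genes. It was 0.077 without vehicle replicate 3, and 0.24 without vehicle replicate 1 (limma unadjusted p = 0.0499, adjusted p = 0.9999).

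Both genes for the INSIG retention proteins overlapped between groups. Insig1, itself an SREBP target, read 10.65, 10.91 and 10.61 in DPM and 10.72, 10.71 and 10.46 in vehicle tumours. DPM replicate 2 was the highest and vehicle replicate 3 the lowest, and the difference was 0.09 (SE 0.12, n = 3 each). Insig2, which is less dependent on SREBP, read 10.19, 10.26 and 10.23 in DPM and 10.49, 10.17 and 10.23 in vehicle tumours. Vehicle replicate 1 stood above the other 5, and the difference was -0.07 (SE 0.10). Stard4, a soluble sterol carrier, read 8.73, 8.31 and 8.43 in DPM and 8.48, 8.55 and 8.68 in vehicle tumours, with both extremes in the DPM group and a difference of -0.08 (SE 0.13).

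On the efflux side, 4 genes had a median difference of 0.0083 log2. Nr1h3, the gene of LXR-alpha, read 8.11, 8.14 and 8.26 in DPM and 8.17, 8.11 and 8.37 in vehicle tumours, and the 95% interval of their difference ran from -0.28 to 0.19. It was the one gene of the 28 removed by a filter at the 50th percentile of mean level. Abca1, which exports cholesterol to apolipoproteins, read 10.36, 10.11 and 10.39 in DPM and 10.18, 10.19 and 10.30 in vehicle tumours. The vehicle values lay inside the DPM range, and the difference was 0.06 (SE 0.10).

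Abcg1, which passes cholesterol to lipoprotein particles, read 9.92, 9.76 and 9.37 in DPM and 9.95, 9.83 and 9.71 in vehicle tumours. DPM replicate 3 was lower than the other 5, and the difference of -0.14 (95% interval -0.49 to 0.20) was the lowest of the 28. Without that tumour it was 0.014. Mylip, which marks lipoprotein receptors for breakdown and is the one listed gene that bears on uptake, read 11.22, 10.70 and 10.84 in DPM and 10.98, 10.73 and 10.78 in vehicle tumours. Both its highest and its lowest value were DPM tumours, and the difference was 0.09 (SE 0.14). Macrophages also express Abca1, Abcg1 and Nr1h3. The 9 macrophage markers had a median difference of -0.18 log2, with 8 of 9 lower in DPM tumours, and summed intensities of 9927 to 12922 on DPM and 11761 to 14261 on vehicle arrays. Their median deviations were 0.15, -0.16 and -0.29 log2 in DPM replicates 1 to 3, and -0.021, 0.041 and 0.29 in vehicle replicates 1 to 3. None of the 9 fell under the filter on mean level, and their part in the efflux genes was not tested.

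Many enzymes were high or low in the same tumours. After quantile normalisation, 11 of the 19 had their highest value of all 6 tumours in DPM replicate 1 (3 with median centring), where 16.3% of all genes tested had theirs. In vehicle replicate 2, 0 of the 19 were highest and 8 were lowest, where 20.9% and 20.1% of all genes were. The order within groups was alike on this scale. Among the 3 DPM tumours 13 of 19 were highest in replicate 1 (36.0% of all genes), and among the 3 vehicle tumours 11 of 19 were lowest in replicate 2 (36.9% of all genes). The median deviation of the 19 enzymes from their own means was 0.14, -0.068 and 0.018 log2 in DPM replicates 1 to 3, and 0.027, -0.12 and 0.023 in vehicle replicates 1 to 3. On this scale DPM replicate 1 was the high and vehicle replicate 2 the low tumour for cholesterol synthesis, with the other 4 between them. The median SD within groups was 0.14 log2 for the enzymes, and 0.13 over all genes tested.

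How many enzymes peaked in DPM replicate 1 depended on the scaling between arrays, as shown by alternatives added after the data were seen. With median centring it was 3 of 19 (10.5% of all genes) and 8 enzymes peaked in vehicle replicate 3 (27.5%), and with no scaling 2 of 19 (6.84%). Among the 3 DPM tumours alone, 7 of 19 peaked in replicate 1 with median centring. The low position of vehicle replicate 2 was seen with all 3 scalings. There, 14 of 19 were lowest after median centring (31.8% of all genes) and 11 of 19 with no scaling (27.2%). Within the DPM group, replicate 2 was lowest for 12 of 19 enzymes after quantile normalisation (30.6% of all genes). It was lowest there for 14 of 19 with median centring (24.7%) and for 14 of 19 with no scaling (38.8%). The genes that sense sterol did not share this order, with median deviations of 0.023, 0.052 and -0.05 in DPM replicates 1 to 3, and 0.056, -0.025 and -0.12 in vehicle replicates 1 to 3.

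**Figure D3:**
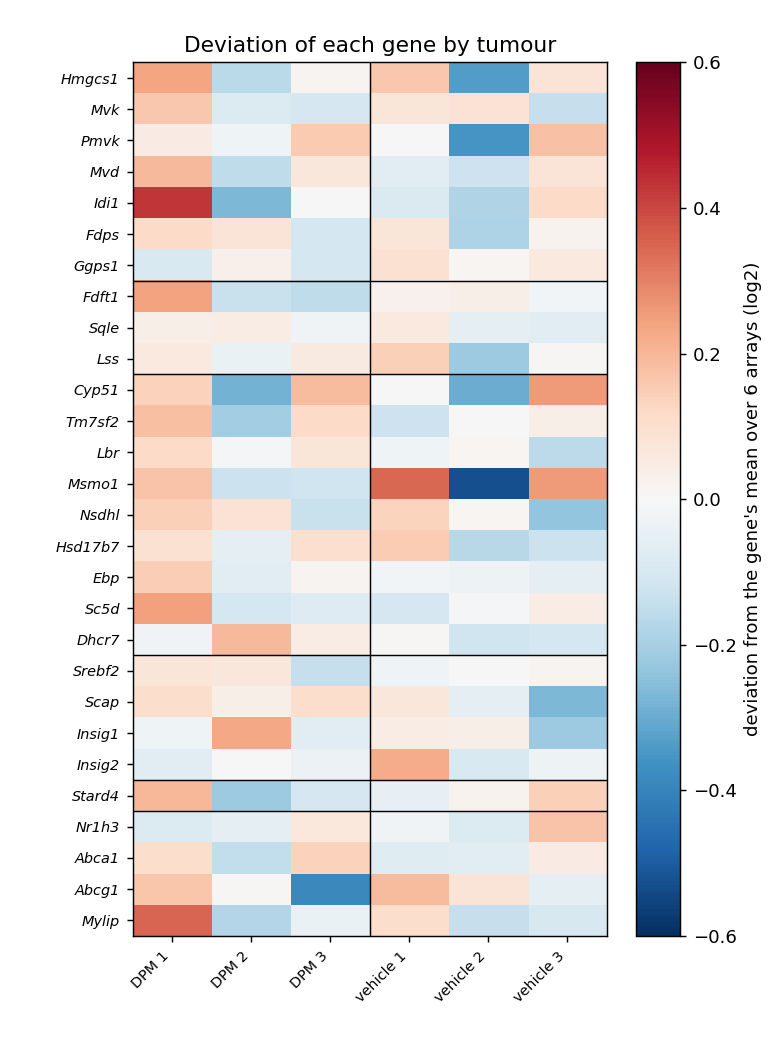
Deviation of each gene from its own mean over the 6 arrays (log2, colour scale from -0.6 to 0.6), with genes in pathway order as rows and tumours as columns. After the quantile normalisation plotted here, reds gather in the column of DPM replicate 1. There, 14 of the 28 genes were highest (4 with median centring), beside 16.3% of all genes tested. Blues gather among the enzymes of vehicle replicate 2, where 9 of the 28 genes were lowest (20.1% of all genes). In DPM replicate 2, 8 of the 28 were lowest (14.3% of all genes).

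Other cell types also differed between these tumours. The 5 adipocyte markers tested deviated by 0.78, -0.40 and -0.48 log2 in DPM replicates 1 to 3, and by 0.13, -0.19 and -0.20 in vehicle replicates 1 to 3, with the highest value in DPM replicate 1. Summed intensity of the 7 adipocyte markers with a probe set was 4778 in that tumour and 1857 and 1889 in the other DPM tumours, against 1947 to 2652 in vehicle tumours. Adipoq and Lep, which define adipocytes, fell under the filter on mean level. Skeletal muscle markers were high in DPM replicate 1 (median deviation 0.51) and vehicle replicate 3 (0.55), with summed intensities of 1875 to 3068 on DPM and 1697 to 2928 on vehicle arrays. The part of adipocyte or muscle RNA in the enzymes' values was not tested.

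The tumours carried the labelled tissue's markers, with all 6 luminal epithelial markers tested (summed intensities of 30061 to 33652 on DPM and 29611 to 34538 on vehicle arrays, median difference -0.037). The 6 basal markers had a median difference of -0.24 log2, with 6 of 6 lower, and summed intensities of 4013 to 5368 and 6147 to 6754. The 7 fibroblast markers had a median of -0.30 (7 of 7 lower, 5369 to 10595 and 8925 to 10900) and the 5 endothelial markers one of 0.15 (5 of 5 higher, 3106 to 3886 and 3008 to 3293). Of the 4 T cell markers 1 passed the filter, at -0.07, and their summed intensities were 669 to 707 and 686 to 764. No marker passed the adjusted threshold. At an unadjusted p under 0.05 in the limma fit, a level reached by 3.87% of all genes, were 2 basal markers (Krt14 and Krt5, lower in DPM tumours), the luminal marker Elf5 (0.32 higher) and the macrophage marker C1qc (difference -0.30). Deposited median intensities of the 6 arrays ran from 270 to 301, and upper quartiles were higher on the 2 arrays numbered 3 (869 and 887) than on the other 4 (717 to 748). Normalised arrays correlated at 0.9819 to 0.9915 over all probe sets.

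Genes around the pathway were read from lists that do not overlap the 30, and 0 of them passed the adjusted threshold. Of 11 enzymes of the isoprenoid branch and of neighbouring synthesis steps, 6 had the higher and 5 the lower mean in DPM tumours, with a median of 0.0022 log2. Their smallest p-values belonged to Dhdds, which builds dolichol precursors (0.15, 95% interval -0.06 to 0.36), the thiolase gene Acat1 (0.16, -0.08 to 0.39) and Pdss2, of ubiquinone synthesis (0.09). Dhdds and Acat1, 2 of the 11, had DPM values wholly above the vehicle values. Groups did not overlap for 6.97% of all genes tested. For Acat1 the margin was slight, with a lowest DPM value of 11.4325 and a highest vehicle value of 11.4321. Of 8 genes of SREBP processing and of sterol-driven protein breakdown, 5 were higher and 3 lower, with a median of 0.02. Srebf1, the gene of SREBP1, differed by 0.26 (95% interval -0.16 to 0.67), Spring1, needed for SREBP cleavage, by 0.08, and the ubiquitin ligase gene Rnf139 by -0.07.

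Of 10 genes of lipoprotein uptake and lysosomal release, 5 were higher and 5 lower, with a median of 0.0001 log2. The scavenger receptor gene Msr1 differed by -0.26 (SE 0.20), the endocytic receptor gene Lrp1 by -0.18 (SE 0.16) and the receptor gene Lrp8 by -0.10 (SE 0.11). Msr1 is a macrophage gene, and the macrophage markers given above had lower means in DPM tumours for 8 of 9. The part of macrophages in the values of Msr1 was not tested. Of 11 genes of sterol transport and storage, 8 were higher and 3 lower, with a median of 0.074. Osbpl2, which encodes an oxysterol-binding protein relative, had a mean level of 10.44 ± 0.02 under DPM against 10.18 ± 0.22 under vehicle (log2, SD, n = 3 each, limma unadjusted p = 0.0553). It was the 1 gene of these 11 whose groups did not overlap, beside 6.97% of all genes tested. The sterol transfer gene Gramd1b differed by 0.22 and the oxysterol-binding protein gene Osbp by 0.17.

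Of 10 partners and targets of the liver X receptors and oxysterol enzymes tested, 5 were higher and 5 lower, with a median of 0.0062 log2. Smpdl3a, a phosphodiesterase gene known as a liver X receptor target, had a mean level of 11.50 ± 0.21 under DPM against 11.13 ± 0.20 under vehicle (SD), which is a difference of 0.36 (SE 0.14, n = 3 each, limma unadjusted p = 0.0286, adjusted p = 0.9996). It was the one gene of these 5 lists at an unadjusted p under 0.05, a level that 3.87% of all genes tested reached. The sterol 27-hydroxylase gene Cyp27a1 differed by 0.23 and the 25-hydroxylase gene Ch25h by -0.20.

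The synthesis of fatty acids shares its acetyl-CoA source and its SREBP regulators with cholesterol synthesis. Of its 19 genes, 16 had the higher mean in DPM tumours, with a median difference of 0.13 log2, beside 15 of 19 and 0.059 for the cholesterol enzymes. At an unadjusted p under 0.05, 5 of the 19 fatty acid genes were higher in DPM tumours, led by Thrsp (difference 0.97 log2), Lpin1 (0.64) and Acacb (0.57), beside 0 of the 19 cholesterol enzymes and 1.68% of all genes tested. Both groups were fully separated for 4 of the fatty acid genes and for 0 of the cholesterol enzymes, beside 6.97% of all genes tested. Their median deviations were 0.17, 0.0063 and 0.12 log2 in DPM replicates 1 to 3, and -0.014, -0.12 and -0.13 in vehicle replicates 1 to 3. DPM replicate 3 was thus high for fatty acid genes and near its mean for cholesterol enzymes. The difference between the 2 lists was not tested. The 9 proliferation genes had a median difference of 0.022, with deviations of -0.19 to 0.18 in vehicle tumours, where replicate 2 was the highest and was the lowest for the cholesterol enzymes.

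**Figure D4:**
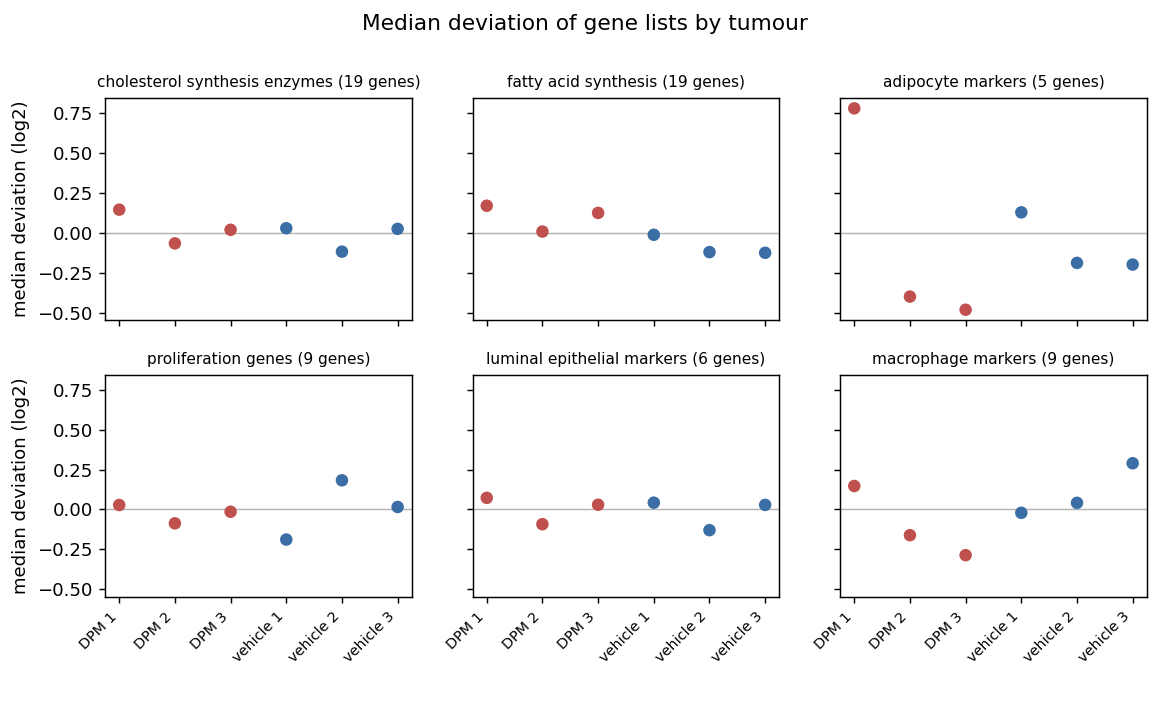
Median deviation from the genes' own means (log2, vertical axis) in each tumour for 6 lists, with red points for DPM and blue points for vehicle tumours. The cholesterol enzymes lie between -0.12 and 0.14, DPM replicate 1 is high for adipocyte markers (0.78), and vehicle replicate 2 is low for the enzymes and high for proliferation genes (0.18).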

How the data were processed

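The authors deposited 1 table of intensity values for 35556 probe sets on 6 one-colour Affymetrix arrays, in whole numbers on a linear scale. Background correction, summarisation and scaling by the authors are not given in the sources used here. Values under 1 were set to 1 before log2, and the 6 arrays were then quantile-normalised together. GEO's platform annotation named 1 gene for 21789 probe sets, several for 1621 (left out) and none for 12146. Current symbols came from RefSeq by Entrez number (21698 matched). Genes with a mean under the 25th percentile (4985) were left out. DPM minus vehicle was tested with limma 3.58.1 in R 4.3.3 (eBayes with an intensity trend, two-sided, Benjamini-Hochberg over 14953 genes, threshold 0.05), with 3 tumours per group. Precision is limited by how few arrays there are. The test was tested on simulated data.

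The 30 genes and all lists were chosen with earlier results of these data known. The genes given value by value are up to 3 of each role with the smallest unadjusted p, and Srebf2, Insig1, Insig2, Hmgcs1, Sqle, Abca1 and Nr1h3 whatever their value. From each list of other pathway genes, up to 3 with the smallest p are named. A gene named outside this rule is said to be so. Summed intensities of a list are sums of normalised values back on the linear scale. Alternatives were other filters, scalings, probe set rules and variance settings, array weights, an offset of 16, a block for replicate number, and leaving out single arrays or both arrays numbered 3.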

Additional observations from a re-analysis of the deposited data

How the results depend on the processing

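In every alternative run, 0 genes of the whole table and 0 of the 28 cholesterol genes passed the adjusted threshold, with smallest adjusted p-values over all genes from 0.182 (without vehicle replicate 2) to 0.864 (no filter). Leaving out 1 array gave 12 to 23 of 28 genes and 9 to 18 of 19 enzymes with the higher mean in DPM tumours, the lowest without DPM replicate 1. The same analyses gave medians over the 28 genes of -0.017 to 0.081 log2, medians of the squalene and lanosterol enzymes of -0.019 to 0.077, of the mevalonate and isoprenoid enzymes of -0.04 to 0.16, of the lanosterol to cholesterol enzymes of 0.0071 to 0.11, and 0 to 1 genes at an unadjusted p under 0.05 (Scap or Msmo1). With array weights the squalene and lanosterol median was -0.028; the cause was not tested. Of the 28 genes, 19 changed sign in at least 1 alternative, and 9 kept their sign in all of them. The alternatives draw on the same 6 arrays, and the filters, variance settings and replicate block leave a gene's difference unchanged. A kept sign is therefore no separate evidence for it. In the main fit the interval held 0 for every one of the 28 genes, so that the sign was not settled for any of them. At an unadjusted p under 0.05 the whole table held 578 genes, and over the alternatives from 316 (without both arrays numbered 3) and 343 (without scaling between arrays) to 699 (array weights), 723 (replicate block) and 753 (without DPM replicate 1). With the replicate number as a block, 0 genes were called (smallest adjusted p 0.501). Deviations of same-numbered tumours correlated at -0.12, 0.11 and 0.371 over genes for numbers 1 to 3. The value for number 3 was the highest of all combinations of a DPM with a vehicle tumour. DPM replicates 1 and 2 each correlated best with a vehicle tumour of another number (0.166 and 0.218). The labels name no pairs, and the numbers were not treated as pairs in the main fit. Whether tumours of the same number share an effect was not tested. Outlying tumours were not tested in groups of 3, and the number of arrays sets the width of all intervals.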
